A study of Mus musculus with 109 samples.

Results

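The retinas described here show what interleukin 1 alpha (IL1A) added to tumor necrosis factor (TNF) 2 days after both were injected into the vitreous of the mouse eye. They are the 18 retinas whose labels gave genotype WT, batch 1 and day 2 and either IL1A+TNF (10 retinas) or TNF alone (8 retinas), of 109 retinas in the series. Mice were 2 to 4 months old, and the series names C57BL/6J as its unmodified strain. The 10 IL1A+TNF retinas came from 10 mice (6 female, 4 male) and the 8 TNF retinas from 8 others (4 female, 4 male), so each retina is 1 mouse and no mouse gave both. For 8 of the TNF mice and 8 of the IL1A+TNF mice the other eye had received PBS and was sequenced too. Levels in all 31 PBS retinas and in 9 retinas given IL1A alone, of the same genotype, batch and day, are set beside the results. RNA came from whole retinas, in which fewer cells of a type and less RNA per cell cannot be told apart.

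IL1A and TNF are cytokines that activated microglia release. IL1A binds the receptor IL1R1, which signals through the adaptor MYD88 and IRAK kinases, and TNF binds TNFRSF1A, which signals through RIPK1. Both routes lead to NF-κB, a family of transcription factors, and to MAP kinases, and both cytokines are known for inducing reactive astrocytes together with complement C1q. Most cells of the mouse retina are rods. Cones, bipolar, amacrine and horizontal cells, Müller glia, retinal ganglion cells (RGCs), astrocytes, microglia and vessels make up the rest.

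Adding IL1A to TNF changed 7618 of 19548 genes tested (39.0%). Of these, 3904 (20%) were higher and 3714 (19%) lower in IL1A+TNF than in TNF retinas. A gene was called changed when its false discovery rate (FDR, the Benjamini-Hochberg adjusted p of limma over all genes tested) was under 0.05. Large differences were mostly rises: 727 called genes were higher and 216 lower by a log2 fold change of at least 1, and 195 were higher and 7 lower by at least 2. Every IL1A+TNF retina lay above every TNF retina in 726 genes (3.71%) and below it in 524 (2.68%). Levels are given as CPM, counts scaled to the library total with TMM factors, which keep the median log2 fold change near 0 (−0.01 here). With library totals in place of TMM factors the split moved to 5907 higher and 2342 lower.

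Total counts ranged from 32508287 to 40885644 in TNF retinas and from 36883363 to 45779899 in IL1A+TNF retinas. On the first principal component of the 18 retinas, which held 37.0% of the variance, treatments separated, and TNF retinas 6 and 3 (mice 60584 and 59897) lay farthest from the IL1A+TNF retinas, at −89.9 and −64.5 against −41.3 to −12.2 for the other TNF retinas. IL1A+TNF retina 9 (mouse 60780) lay closest to TNF, at 0.2 against 21.2 to 62.0. Without TNF retina 6 the count was 6552, and without TNF retinas 6 and 3 together, a choice made after the data were seen, it was 5837 (29.9%). With mouse as a fixed factor, the replicate block, each retina is read against the PBS eye of its own mouse, whose spread enters the difference. The 2 IL1A+TNF mice with no PBS eye give no information. The count was then 2753 (14.1%), with 1417 higher and 1336 lower. A call lost in this fit does not by itself show that the difference is absent.

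Of 22 tested ligands, receptors and adaptors of the IL1 family, 14 rose and 0 fell, with a median log2 fold change of 0.48. Of these, 6 stayed called with mouse as a fixed factor. Il1a itself, the injected cytokine's own gene, was low and was not called, at 0.749 to 1.49 CPM (median 1.003) in TNF and 0.933 to 1.93 CPM (median 1.28) in IL1A+TNF retinas (log2 fold change 0.33 ± 0.20 (SE), FDR = 0.203). Il1b, the other agonist of the same receptor, ranged from 0.19 to 6.02 CPM (median 2.29) in TNF retinas and from 6.21 to 26.3 CPM (median 13.4) in IL1A+TNF retinas. All IL1A+TNF retinas were above all TNF retinas (log2 fold change 2.69 ± 0.54 (SE), FDR = 5.67e-05), but against the PBS eyes of the same mice the difference was 0.45, FDR = 0.802. Myd88 went from 9.14 to 15.4 CPM (median 12.2) to 15.7 to 51.03 CPM (median 32.6) with no overlap (log2 fold change 1.26 ± 0.17 (SE), FDR = 4.28e-08). Irak2, Irak4 and Irak3, the last a brake on the pathway, also rose, by 0.45, 0.79 and 1.42 on the log2 scale.

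Among 20 tested members of the TNF family list, 13 rose and 0 fell (median 0.59). Of these, 5 stayed called with mouse as a fixed factor. Tnf transcripts were scarce, from 0.0578 to 0.392 CPM (median 0.209) in TNF and 0.346 to 1.34 CPM (median 0.852) in IL1A+TNF retinas (log2 fold change 2.10 ± 0.36 (SE), FDR = 4.87e-06). The receptor gene Tnfrsf1a ranged from 14.6 to 31.6 CPM (median 25.5) in TNF retinas and from 34.8 to 70.4 CPM (median 46.9) in IL1A+TNF retinas, which did not overlap (log2 fold change 1.03 ± 0.16 (SE), FDR = 4.01e-07). Ripk1, the kinase on which TNF receptor signals divide between survival and death, rose from a median of 10.7 to 24.6 CPM (log2 fold change 1.06 ± 0.15 (SE), FDR = 1.51e-07). Ltb and Ltbr, a lymphotoxin and its receptor, rose by 2.64 and 0.96.

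NF-κB genes moved in both directions. Of 20 tested, 14 rose and 2 fell (median 0.32). Bcl3, a nuclear partner of NF-κB, was at 4.87 to 9.93 CPM (median 7.49) in TNF and 13.9 to 65.4 CPM (median 40.4) in IL1A+TNF retinas (log2 fold change 2.40 ± 0.33 (SE), FDR = 6.98e-08). Subunits moved less, with Rela at 0.48, Nfkb2 at 0.83 and Nfkb1 at 0.17. Tnfaip3, which encodes the inhibitor A20, went the other way: TNF retinas held 218 to 285 CPM (median 251) and IL1A+TNF retinas 84.8 to 209.9 CPM (median 109), with no overlap (log2 fold change −1.17 ± 0.12 (SE), FDR = 2.59e-10). Its median was 259.6 CPM after PBS and 183 CPM after IL1A alone. The gp130 list holds cytokines that signal through gp130 to STAT3, their receptors, JAK kinases, Stat3 and Socs genes, and also Fgf2 and Edn2. Of its 16 tested genes 13 rose and 0 fell (median 0.93). Socs3, a STAT3 target that restrains it, was at 12.2 to 25.7 CPM (median 16.4) in TNF and at 27.02 to 152 CPM (median 88.1) in IL1A+TNF retinas (log2 fold change 2.11 ± 0.31 (SE), FDR = 2.99e-07), and Stat3 rose by 0.81 and Lif by 1.12. With mouse as a fixed factor 3 of the NF-κB genes and 5 genes of the gp130 list stayed called higher.

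Interferon response genes rose almost throughout: 29 of 30 tested members were higher and 0 lower, with a median log2 fold change of 1.77, and the remaining one, Ifi27l2a, was at −0.04. Of 15 tested GTPases that interferon gamma induces, 13 rose and 0 fell (median 2.38). Promoters of the 4 called GTPase genes with the smallest FDR, and of Ifit1, Socs3 and Tnfaip3, are shown because these genes lead the lists described here. For each gene the first window with a match upstream of the start was taken and cut to its matches. Each stretch shown was therefore certain to hold a match. Capitals mark letters that match, on either strand, the interferon response element core GAAANNGAA, the STAT half-site pair TTCNNNGAA, the AP-1 site TGANTCA or the κB core GGANNTTCC, with overlapping matches joined. Sequences are RefSeq promoter windows on GRCm38.p6, written along the gene's own strand.
Irgm1 (chr11:48871421-48871555, minus strand): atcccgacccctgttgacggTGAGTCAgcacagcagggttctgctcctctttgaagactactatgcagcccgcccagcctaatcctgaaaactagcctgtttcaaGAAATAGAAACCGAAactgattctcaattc
Irgm2 (chr11:58214882-58214941, plus strand): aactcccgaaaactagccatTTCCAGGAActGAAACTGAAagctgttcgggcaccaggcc
Igtp (chr11:58199491-58199550, plus strand): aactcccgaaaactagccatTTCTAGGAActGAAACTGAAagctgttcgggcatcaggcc
Gbp7 (chr3:142530210-142530312, plus strand): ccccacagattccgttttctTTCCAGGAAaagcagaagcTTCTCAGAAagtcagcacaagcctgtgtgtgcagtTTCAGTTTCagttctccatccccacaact
Ifit1 (chr19:34640760-34640833, plus strand): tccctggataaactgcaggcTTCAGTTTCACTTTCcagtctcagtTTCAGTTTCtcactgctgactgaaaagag
Socs3 (chr11:117969492-117969540, minus strand): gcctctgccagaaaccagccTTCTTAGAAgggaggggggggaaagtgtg
Tnfaip3 (chr10:19015411-19015566, minus strand): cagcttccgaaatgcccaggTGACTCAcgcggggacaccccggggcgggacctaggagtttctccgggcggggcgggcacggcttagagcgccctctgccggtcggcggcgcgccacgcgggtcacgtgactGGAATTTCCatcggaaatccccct
Irgm2 and Igtp, which neighbour each other on chromosome 11, share nearly the same stretch, with a STAT pair just upstream of an interferon core. Irgm1 and Ifit1 hold overlapping interferon cores. A match is only a description of the letters. Of all 32851 windows, 8.56% hold the interferon core, 8.3% the STAT pair, 7.81% the AP-1 site and 4.26% the κB core. Counted per tested gene with a window, the interferon core was present in 8.74% of 12991 genes, 10.2% of those called higher and 7.53% of those called lower. The STAT pair was present in 8.28% of all tested genes, in 301 of the 3009 called higher and in 7.46% of those called lower. In the same order, the AP-1 site was present in 6.71%, 7.98% and 6.11% and the κB core in 5.39%, 6.05% and 5.61%. In the GTPase list 8 of the 9 genes with a window held the interferon core and 5 the STAT pair, and in the interferon list 12 and 8 of 22. The AP-1 site and the κB core were each in 2 genes of the GTPase list (22.2%) and in 6 and 5 of the interferon list (27.3% and 22.7%).

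Irgm1, a GTPase of defence against intracellular microbes, ranged from 9.24 to 21.96 CPM (median 15.2) in TNF retinas and from 15.5 to 226 CPM (median 158) in IL1A+TNF retinas (log2 fold change 2.87 ± 0.41 (SE), FDR = 1.41e-07). Its median was 13.1 CPM after PBS and 26.9 CPM after IL1A alone. Irgm2, Igtp and Gbp7 rose by 2.47, 2.77 and 2.17. The IL1A+TNF ranges reach down into the TNF range for Irgm1 and far above it. Stat2 and Irf9 encode subunits of the factor that type I interferon activates, and Stat2 rose by 1.98 and Irf9 by 2.04. Ifit1 and Ifit2, which bind viral RNA or restrain its translation, rose by 2.06 and 1.52.

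The interferon response was uneven among the IL1A+TNF retinas. Summed over the interferon list, TNF retinas held 383 to 583 CPM (median 507). IL1A+TNF retinas 9 and 4 held 505 and 703 CPM, and the other 8 held 1837 to 3072 CPM. The same 2 retinas were lowest for the GTPases, at 96.8 and 138 CPM against 435 to 784 CPM in the other 8 and 61.4 to 124 CPM (median 102) in TNF retinas. The median sum of the interferon list was 489 CPM after PBS and 707 CPM after IL1A alone. In the fit with mouse as a fixed factor 23 of the 30 interferon genes and 11 of the 15 GTPases stayed called higher, and without TNF retinas 6 and 3 the counts higher were 27 and 12.

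**Figure D1:**
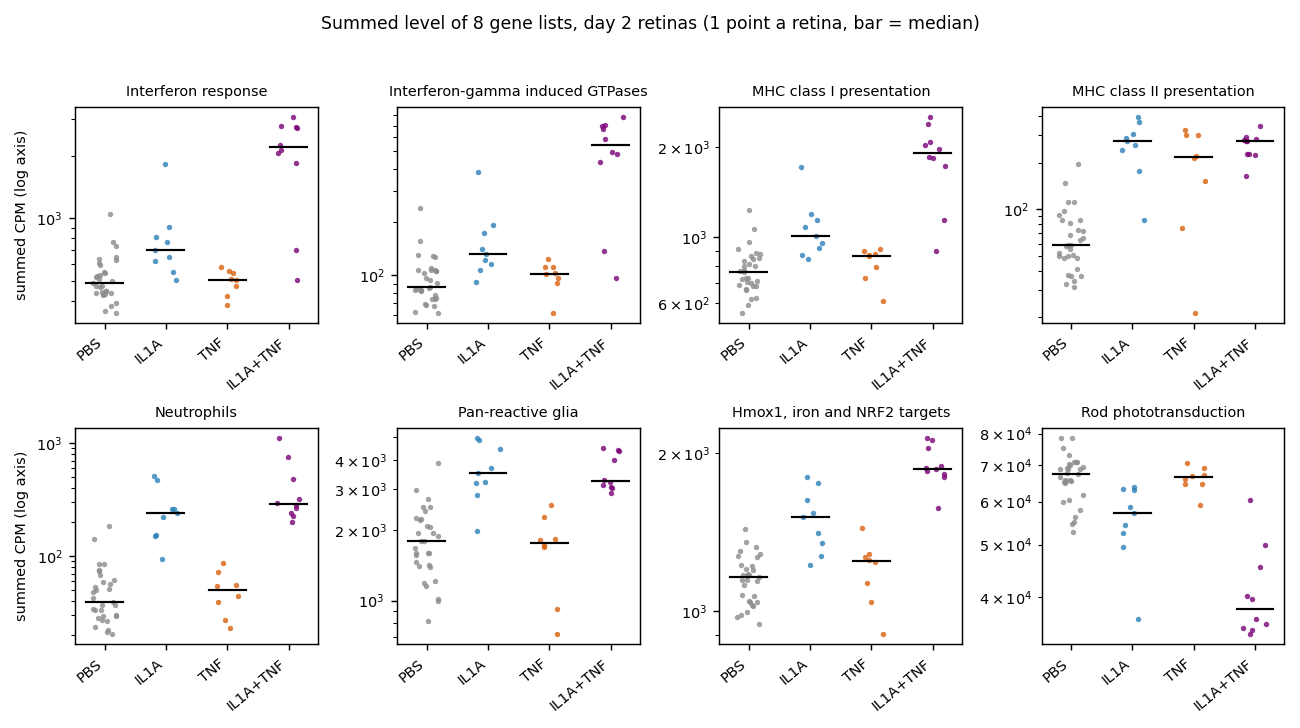
Summed CPM (log axis) of 8 gene lists in each day 2 retina, by treatment, with 1 point a retina and a bar at the median. Interferon and GTPase sums in 9 of the 10 IL1A+TNF retinas lie above every TNF retina, retina 4 by the least, while MHC class II sums of the groups overlap.

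Genes that load and present peptides on MHC class I followed, with 17 of 18 tested higher and 0 lower (median 1.16). H2-D1, a class I heavy chain, was at 70.3 to 144 CPM (median 117) in TNF and 146 to 635 CPM (median 454) in IL1A+TNF retinas, with no overlap (log2 fold change 1.80 ± 0.23 (SE), FDR = 1.17e-08). Tapbp, which encodes the loading chaperone tapasin, and Psmb10, an immunoproteasome subunit, rose by 1.61 and 1.40. Of 13 tested MHC class II genes 4 rose and 0 fell (30.8% called, against 39.0% of all genes; median 0.81), and neither H2-Aa (0.81, FDR = 0.184) nor H2-Ab1 (0.69, FDR = 0.155) was called. H2-Aa ranged from 0.349 to 52.8 CPM (median 30.5) in TNF and 15.3 to 48.7 CPM (median 34.4) in IL1A+TNF retinas, with medians of 4.39 CPM after PBS and 41.2 CPM after IL1A. The lowest TNF value was retina 6, without which the log2 fold change was −0.03. The interval of the H2-Aa difference, 2 SE either side, ran from −0.15 to 1.78. The called members were H2-DMb2, Cd80, Ctss and Cd86, of which Cd80 and Cd86 encode costimulatory ligands, and none of the 13 was called without TNF retinas 6 and 3 or with mouse as a fixed factor.

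In the complement list 10 of 21 tested genes rose and 0 fell (median 0.43). The share called was 47.6%, against 39.0% of all genes. The count was 4 with mouse as a fixed factor, with a median of 0.15. C1qa, which encodes a chain of C1q, was at 6.82 to 22.5 CPM (median 16.9) in TNF and 18.7 to 39.2 CPM (median 29.8) in IL1A+TNF retinas (log2 fold change 0.92 ± 0.17 (SE), FDR = 1.47e-05), and C1qb rose by 0.89. Receptors moved further, with C5ar1 at 2.28, Itgam, a chain of complement receptor 3, at 1.42, and C3ar1 at 1.18. These receptors are also carried by neutrophils and other myeloid cells.

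Neutrophil genes had the largest median of the lists, 2.98, with 9 of 12 tested higher and 0 lower. This rank was not kept with mouse as a fixed factor. The neutrophil median was then 1.3, below those of the GTPases (2.24) and the interferon genes (1.52). S100a8 and S100a9 encode the calprotectin subunits that fill neutrophil cytoplasm. S100a8 ranged from 0.0952 to 4.74 CPM (median 2.98) in TNF retinas and from 18.4 to 176 CPM (median 23.8) in IL1A+TNF retinas, with no overlap (log2 fold change 3.94 ± 0.71 (SE), FDR = 9.66e-06). The level after IL1A alone, with a median of 20.1 CPM, was near that after IL1A+TNF, and the PBS median was 2.37 CPM. Cxcr2, the receptor for neutrophil-attracting chemokines, Csf3r, the receptor for G-CSF, and Il1r2, a decoy receptor for IL1, rose by 4.20, 3.42 and 2.98, each without overlap. TNF retina 6 held the least of both S100a8 and Cxcr2, and without it their log2 fold changes were 3.27 and 3.15. Granule genes of immature neutrophils did not pass: Ltf, Camp and Ngp, named after their values were seen, were at 1.45, −0.22 and −0.53. Mpo and Elane were too low to test, as was Ly6g, which is not a granule gene.

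PBS eyes of the same mice held neutrophil transcripts too, over ranges that overlapped. Summed neutrophil genes were 23.4 to 184 CPM (median 39.8) in the 8 PBS eyes of IL1A+TNF mice and 20.4 to 56.8 CPM (median 29.5) in those of TNF mice. With mouse as a fixed factor only 1 of the 12 genes, Mmp9, was called, and S100a8 was at 1.47, FDR = 0.314 and Cxcr2 at 1.24, FDR = 0.407. Mmp9, which encodes a gelatinase made by neutrophils and by other cells, ranged from 17.5 to 35.2 CPM (median 25.1) in TNF and 66.3 to 305 CPM (median 98.2) in IL1A+TNF retinas (log2 fold change 2.13 ± 0.21 (SE), FDR = 7.79e-11).

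Of 12 tested genes of infiltrating monocytes and macrophages 8 rose and 0 fell (median 1.28), and 1 stayed called with mouse as a fixed factor. Arg1, arginase 1, was at 1.59 to 14.03 CPM (median 6.96) in TNF and 14.5 to 127 CPM (median 37.3) in IL1A+TNF retinas (log2 fold change 2.68 ± 0.39 (SE), FDR = 1.67e-07). Ccr2, the receptor that recruits monocytes, was high in both groups: 0.0635 to 46.8 CPM (median 26.5) in TNF and 27.5 to 62.4 CPM (median 34.7) in IL1A+TNF retinas, against a PBS median of 3.63 CPM. Its call (1.43, FDR = 0.0335) was lost without TNF retina 6 (0.39), TNF retina 3 (1.36) or IL1A+TNF retina 2 (1.34), and against the PBS eyes the direction turned, to −0.10, FDR = 0.952. By edgeR's quasi-likelihood test and by DESeq2 it was not called, at 0.52 and 0.53. Of 22 tested chemokines 8 rose and 1 fell, close to the share of all genes, and 0 were called with mouse as a fixed factor. Ccl3 (2.29, FDR = 4.13e-06) and Ccl6 (2.35, FDR = 7.95e-05) rose, and Ccl2, which draws monocytes, was at 1.11, FDR = 0.0719.

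Adhesion genes rose in 14 of 19 and fell in 1 (4 and 1 with mouse fixed), yet the endothelial ligands Icam1 (0.56, FDR = 0.0708) and Vcam1 (0.14, FDR = 0.6) were not called. The leukocyte integrins Itgb2 and Itgal rose by 1.74 and 1.54, Cd47 by 0.58, and the junction gene Jam2 fell by 0.43 on the log2 scale. Of the endothelial and pericyte list 1 of 18 rose and 3 fell, Tfrc and Vegfa by 0.66 and 0.40. The share called was 22.2%, below the 39.0% of all genes, and 0 were higher and 2 lower with mouse fixed. None of 4 tested T cell genes, 4 B cell genes, 10 lens genes or 10 pigment epithelium genes was called. Lens genes summed to 1.84 to 2897 CPM (median 11.7) in TNF and 2.25 to 2834 CPM (median 17.5) in IL1A+TNF retinas. Pigment epithelium genes summed to 16.2 to 717 CPM (median 101) and 20.5 to 518 CPM (median 123). Both ranges were wide in each group, and the part of such tissue in the results was not tested. Of 5 hemoglobin and other red cell genes 1, Hbb-bs, rose (0.56, FDR = 0.0168), and 3 were called higher with mouse fixed.

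**Figure D2:**
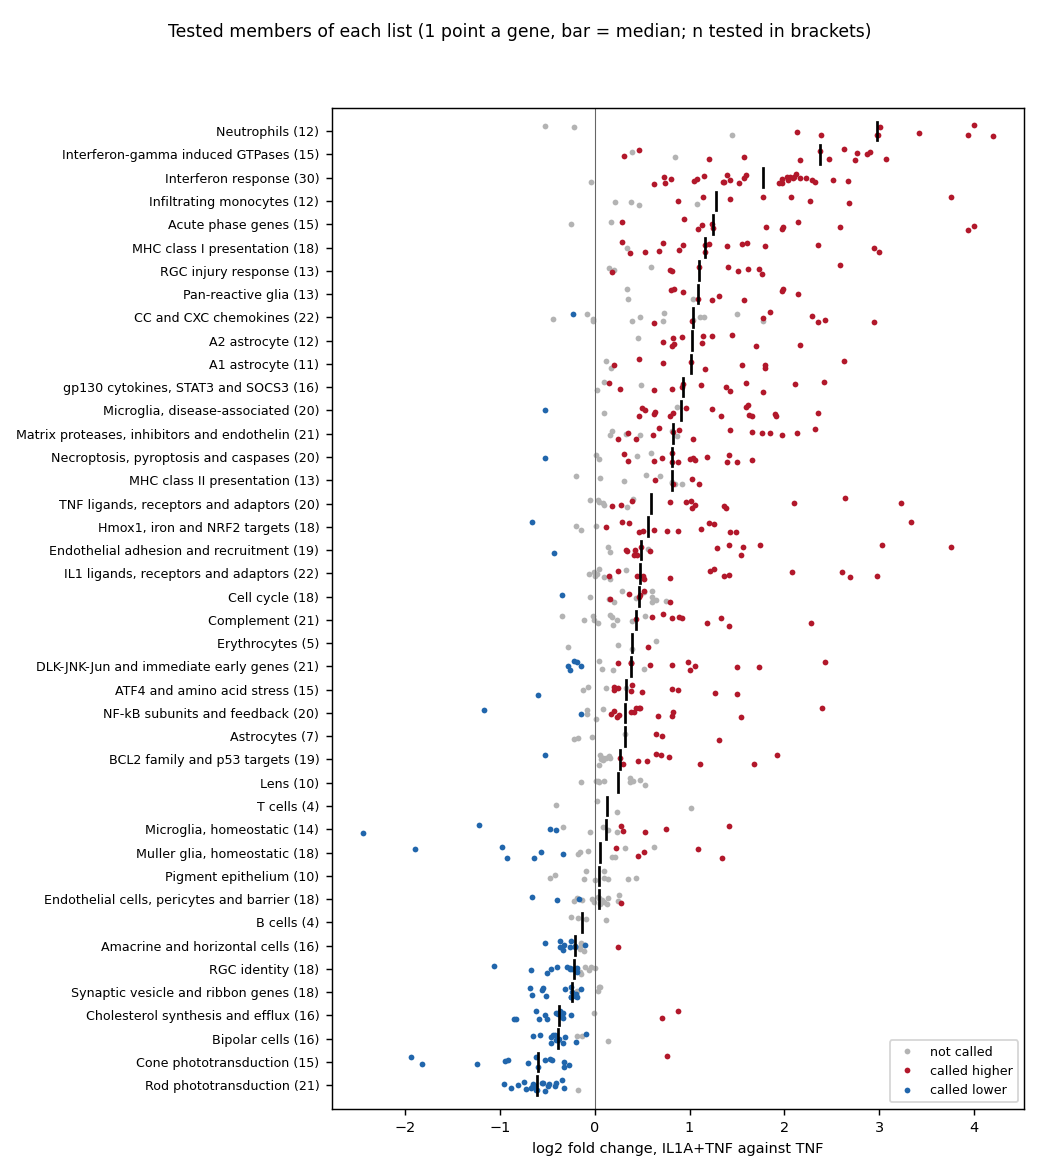
Log2 fold change (IL1A+TNF against TNF) of every tested member of the 42 lists, with 1 point a gene, colour by call and a bar at the list median. Lists of neutrophil, GTPase and interferon genes lie at the top and rod and cone genes at the bottom.

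In the reactive glia lists the genes that rose were 10 of 13 tested pan-reactive genes (1.09), 9 of 11 of the A1 list (1.01) and 11 of 12 of the A2 list (1.03), with 0 lower in any and the median of each list in brackets. The A1 list shares H2-T23 (1.16), the immunoproteasome gene Psmb8 (1.55) and H2-D1 with the class I list, and Gbp2 and Iigp1 with the GTPase list. Gfap, the intermediate filament of reactive astrocytes and Müller glia, was at 66.4 to 151 CPM (median 104) in TNF and 124 to 327 CPM (median 259) in IL1A+TNF retinas (log2 fold change 1.31 ± 0.20 (SE), FDR = 6.03e-07), with 121 CPM as the median after IL1A alone. The lowest of the IL1A+TNF values was retina 9. Steap4, Cd44 and S1pr3 rose by 1.99, 1.57 and 0.84. Summed pan-reactive genes were 719 to 2567 CPM (median 1767) in TNF, 2880.4 to 4494 CPM (median 3247) in IL1A+TNF and 1984 to 4965 CPM (median 3506) in IL1A retinas, so the TNF retinas lay below all IL1A+TNF retinas and the IL1A range spanned them. Without TNF retinas 6 and 3 the counts higher were 9, 9 and 7. They were 6, 5 and 5 with mouse as a fixed factor, with medians of 0.82, 0.95 and 0.78.

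Müller glia genes of the resting state moved both ways, 5 higher and 6 lower of 18 (4 and 2 with mouse fixed). Glul, glutamine synthetase, was at 1132 to 2044 CPM (median 1743) in TNF and 537 to 1266 CPM (median 813) in IL1A+TNF retinas (log2 fold change −0.98 ± 0.15 (SE), FDR = 3.32e-07), with medians of 1786 CPM after PBS and 1008 CPM after IL1A alone. Spc25 fell by 1.90, and Crym rose by 1.34 without overlap. Slc1a3, the glutamate transporter GLAST, rose by 0.22, a call that was lost in 2 of the 18 fits that left out 1 retina. Of the 7 astrocyte genes 3 rose, Gfap, Aldh1l1 (0.65) and Pax2 (0.71), and 0 fell. The share called was 42.9%, near the 39.0% of all genes, and 2 stayed called with mouse fixed.

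Disease-associated microglial genes mostly rose, while homeostatic ones went both ways. Of 20 tested genes of disease-associated microglia 17 rose and 1, Cst7, fell, with a median of 0.91. The fall of Cst7 was not called by edgeR, by DESeq2 or with mouse as a fixed factor. Csf1, the growth factor of microglia and macrophages, was at 9.62 to 20.7 CPM (median 15.8) in TNF and 24.4 to 68.6 CPM (median 53.9) in IL1A+TNF retinas without overlap (log2 fold change 1.66 ± 0.18 (SE), FDR = 2.59e-10). Tyrobp, the adaptor of TREM2, and Trem2 rose by 1.90 and 0.79, and Cd68 and Ctsz, lysosomal genes, by 1.24 and 0.64. Of the list, 9 stayed called higher with mouse fixed. Infiltrating macrophages also carry most of these genes. Of 14 homeostatic genes 5 rose and 4 fell, against 3 and 1 with mouse fixed (median 0.12). P2ry12 and Tmem119 were at −0.05, FDR = 0.775 and −0.34, FDR = 0.0929, Siglech fell from 1.53 to 2.89 CPM (median 2.09) to 0.21 to 0.831 CPM (median 0.313) (log2 fold change −2.44 ± 0.27 (SE), FDR = 7.04e-10), and P2ry13 rose by 1.42.

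Hmox1, which encodes the heme-degrading enzyme heme oxygenase 1, had the smallest FDR of all genes. It ranged from 3.84 to 34.6 CPM (median 11.2) in TNF retinas and from 86.1 to 171 CPM (median 143) in IL1A+TNF retinas, where every value was above every TNF value (log2 fold change 3.34 ± 0.28 (SE), FDR = 5.81e-13). Medians after PBS and after IL1A alone were 7.82 and 39.1 CPM. It kept its call against the PBS eyes of the same mice (3.0, FDR = 0.00145). Of the 18 genes of heme, iron and NRF2 handling 14 rose and 1 fell (median 0.56), and 10 stayed called higher with mouse as a fixed factor. Ftl1, the light chain of the iron store ferritin, was at 111 to 262 CPM (median 217) in TNF and 326 to 582 CPM (median 464) in IL1A+TNF retinas (log2 fold change 1.26 ± 0.14 (SE), FDR = 5.52e-10). Slc40a1, the iron exporter ferroportin, rose (log2 fold change 1.12 ± 0.11 (SE), FDR = 1.22e-10), and Tfrc, the transferrin receptor, fell. Nqo1, a standard NRF2 target, was at −0.20, FDR = 0.366.

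Acute phase genes rose in 13 of 15 and fell in 0 (median 1.25), 86.7% called against 39.0% of all genes. Against the PBS eyes 2 stayed called, or 13.3% of the list against 14.1% of all genes. The list shares Lcn2, Steap4, Timp1, Cp and Serpina3n with the pan-reactive list and S100a8 and S100a9 with the neutrophil list. Lcn2, lipocalin 2, was at 13.4 to 165 CPM (median 125) in TNF and 316 to 834 CPM (median 366) in IL1A+TNF retinas (log2 fold change 2.14 ± 0.43 (SE), FDR = 5.87e-05), with a median of 591 CPM after IL1A alone. Cp, ceruloplasmin, was at 331 to 778 CPM (median 669) and 1124 to 1574 CPM (median 1293) (log2 fold change 1.09 ± 0.16 (SE), FDR = 2.65e-07). In the matrix list 15 of 21 genes rose and 0 fell, and 6 stayed called with mouse fixed. Timp1, an inhibitor of matrix proteases, Mmp12, a macrophage elastase, and Edn2, endothelin 2, which stressed photoreceptors are known to make, rose by 1.98, 2.32 and 1.43. Of 15 ATF4 and amino acid stress genes 10 rose and 1 fell (3 and 1 with mouse fixed): Nupr1 and Chac1 rose by 1.27 and 0.81, and Ddit4, an inhibitor of mTORC1, fell by 0.60.

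**Figure D3:**
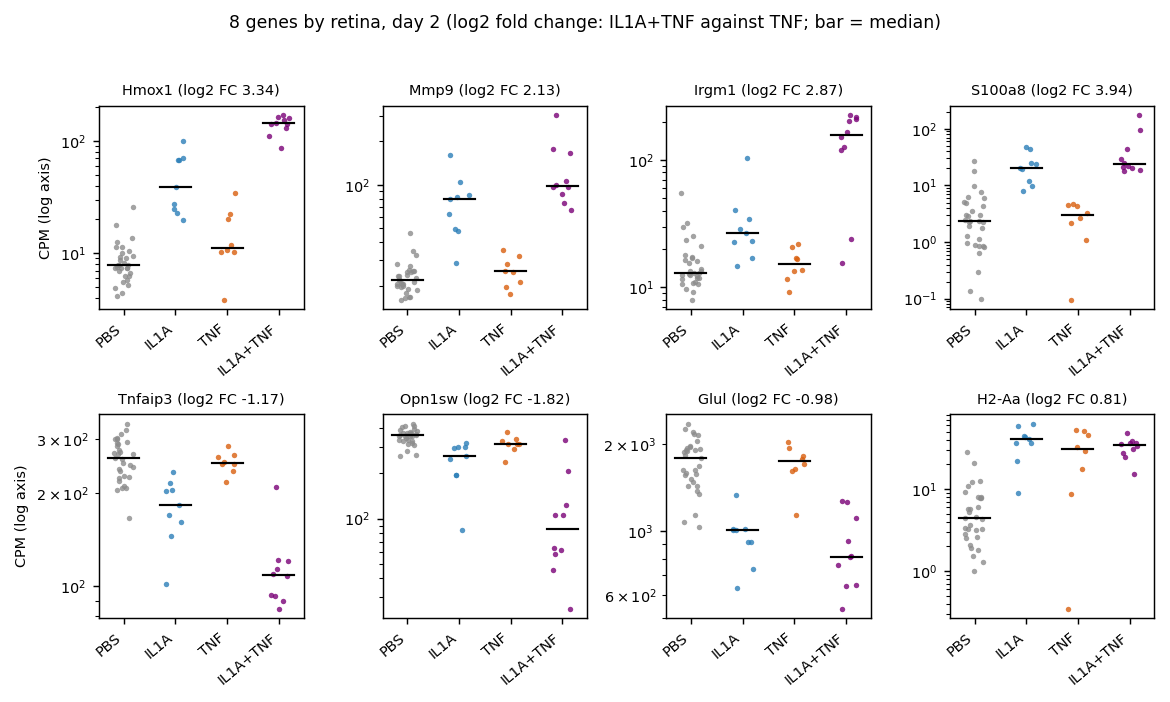
CPM (log axis) of 8 genes in each day 2 retina by treatment, with 1 point a retina and a bar at the median. Hmox1, Mmp9 and S100a8 are above every TNF value in all IL1A+TNF retinas, Tnfaip3 is below, Irgm1 is high in 8 of 10 IL1A+TNF retinas, and H2-Aa overlaps.

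Of 20 tested genes of necroptosis, pyroptosis and the caspases 15 rose and 1 fell (median 0.82). Ripk3, the kinase that drives necroptosis, was scarce, at 0.0635 to 1.09 CPM (median 0.64) in TNF and 0.96 to 2.01 CPM (median 1.18) in IL1A+TNF retinas (log2 fold change 1.42 ± 0.32 (SE), FDR = 0.000242). Ninj1, which ruptures the plasma membrane late in lytic death, rose without overlap from a median of 7.29 to 13.8 CPM (log2 fold change 1.00 ± 0.13 (SE), FDR = 8.81e-09), and the inflammasome sensors Aim2 and Nlrp3 rose by 0.82 and 1.66. With mouse as a fixed factor 6 of these genes stayed called higher. In the BCL2 family and p53 target list 10 of 19 rose and 1 fell: the proapoptotic Pmaip1, Bak1 and Bax by 1.92, 0.46 and 0.27, the antiapoptotic Mcl1 by 0.65, while Bcl2 fell by 0.53.

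Of 21 genes of the DLK-JNK-Jun axis and the immediate early response 11 rose and 5 fell, against 4 and 3 with mouse fixed (median 0.38). The transcription factors accounted for the rises and the kinases for the falls. Jun was at 40.2 to 53.3 CPM (median 46.2) in TNF and 48.9 to 121 CPM (median 86.7) in IL1A+TNF retinas (log2 fold change 0.81 ± 0.12 (SE), FDR = 4.31e-07), and Junb and Egr2 rose by 1.5 and 2.43. Map3k12, the kinase DLK, fell by 0.28, and the other 4 genes that fell were Map3k13, Mapk8, Mapk9 and Mapk10. In the RGC injury list 10 of 13 rose and 0 fell (median 1.10), of which 7 stayed called with mouse as a fixed factor. Atf3, an early marker of axon injury, was at 9.11 to 16.9 CPM (median 12.98) in TNF and 14.6 to 68.7 CPM (median 52.6) in IL1A+TNF retinas (log2 fold change 1.73 ± 0.27 (SE), FDR = 5.21e-07), and Ecel1 and Sprr1a rose by 1.51 and 2.59. Atf3 is also induced in other cells.

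RGC identity genes fell in 11 of 18 (5 with mouse fixed) and rose in 0, with a median of −0.22. Rbpms, an RNA-binding protein used to count RGCs, was at 29.2 to 33.4 CPM (median 31.2) in TNF and 23.2 to 29.4 CPM (median 24.5) in IL1A+TNF retinas (log2 fold change −0.29 ± 0.05 (SE), FDR = 1.37e-05). Pou4f1 was not called (−0.16, FDR = 0.091), and Scn4b, a sodium channel subunit, fell by 1.06. Sarm1, the NADase that executes axon degeneration, fell without overlap from a median of 106 to 87.5 CPM (log2 fold change −0.28 ± 0.06 (SE), FDR = 0.00013).

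Photoreceptor genes fell. Of 21 tested rod genes 20 fell and 0 rose (median −0.61), Sag being the one not called, and 15 stayed called lower with mouse as a fixed factor. Nrl, the transcription factor that makes a photoreceptor a rod, and Cngb1, a subunit of its light-gated channel, fell without overlap by 0.81 and 0.61. Rgs9bp, which anchors the complex that ends each light response, was at 999 to 1212 CPM (median 1071) in TNF and 407 to 887 CPM (median 523) in IL1A+TNF retinas (log2 fold change −0.96 ± 0.10 (SE), FDR = 1.08e-10). Summed rod genes were 59110.2 to 70534 CPM (median 66499.7) in TNF and 34246 to 60475 CPM (median 38117) in IL1A+TNF retinas, and IL1A+TNF retinas 9 and 4, with the smallest interferon sums, had the highest rod sums, 60475 and 49933 CPM.

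Cone genes fell in 14 of 15, and 1, Gnb3, rose by 0.76. Gnb3 is also used by bipolar cells. The cone arrestin Arr3 fell by 1.94 and the opsins Opn1sw and Opn1mw by 1.82 and 1.24. Opn1sw spanned 239.6 to 375 CPM (median 316) in TNF and 25.2 to 333 CPM (median 85.1) in IL1A+TNF retinas, which overlap. With mouse as a fixed factor 10 of the cone genes stayed called lower and Gnb3 higher. Other neurons had smaller medians. Bipolar genes fell in 13 of 16 (median −0.39; Grm6, the receptor of ON bipolar cells, by 0.42), and amacrine and horizontal cell genes in 10 of 16 with 1 higher (median −0.21; Gad1 by 0.25). With mouse as a fixed factor 5 bipolar genes stayed called lower, and of the amacrine and horizontal cell genes 2, or 12.5% of the list against 14.1% of all genes. Synaptic genes fell in 14 of 18, of which 8 stayed called with mouse fixed (median −0.24), Rims2 and Cacna1f, both of the photoreceptor ribbon synapse, by 0.68 and 0.66, while Syt1 was at 0.05, FDR = 0.394.

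Cholesterol genes fell in a narrow band. Of 16 tested 13 fell and 2, Abca1 and Ch25h, rose, with a median of −0.38, and the same number fell with mouse as a fixed factor and without TNF retinas 6 and 3. Insig1, which holds cholesterol synthesis in check, was at 62.5 to 98.6 CPM (median 75.4) in TNF and 34.5 to 62.8 CPM (median 39.8) in IL1A+TNF retinas (log2 fold change −0.85 ± 0.10 (SE), FDR = 1.34e-09). Abca1 exports cholesterol from cells. In the cell cycle list 6 of 18 rose and 1 fell, 38.9% called against 39.0% of all genes, and 3 were called with mouse fixed. Mcm3 and Mcm2, of the replicative helicase, rose by 0.79 and 0.36, and Mki67 and Top2a were at 0.52, FDR = 0.222 and 0.65, FDR = 0.0982.

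**Figure D4:**
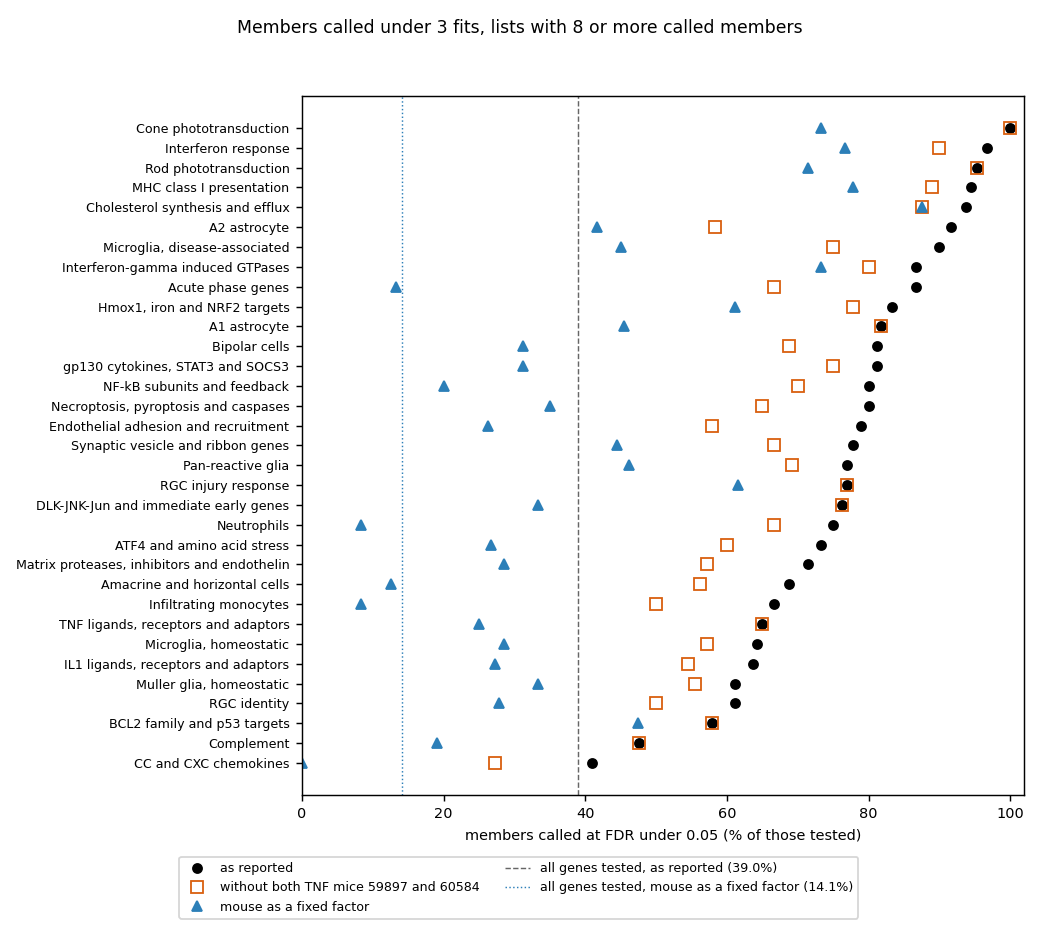
Percent of tested members called (either direction) for lists with 8 or more called members, in the fit as reported, without TNF mice 59897 and 60584, and with mouse as a fixed factor; lines mark all genes tested, 39.0% and 14.1%. With mouse fixed, rod genes are at 71.4%, cone and GTPase genes at 73.3%, interferon genes at 76.7%, class I genes at 77.8% and cholesterol genes at 87.5%, while neutrophil and monocyte genes are at 8.33% and acute phase genes at 13.3%.

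Besides Hmox1, Mmp9, Rgs9bp and Slc40a1, the 10 genes with the smallest FDR were Slc4a7, a bicarbonate transporter, Fam53b, Mef2c, a transcription factor, Fndc1, Dpf3, and Ttc8, a subunit of the ciliary BBSome complex. All 6 fell without overlap, by 0.59, 0.58, 0.88, 1.46, 0.82 and 0.45, and each kept its call with mouse as a fixed factor. Among called genes with a mean of at least 1 CPM, the largest rise was that of Serpina3f, a serine protease inhibitor, from 0 to 0.173 CPM (median 0.0284) to 0 to 4.96 CPM (median 2.53) (log2 fold change 5.01 ± 1.59 (SE), FDR = 0.00918). Mylk2, Gm12185, Il1f9, Siglecf and Nlrp12 rose by 4.69, 4.11, 3.93, 3.66 and 3.54, of which Siglecf and Nlrp12 are known from leukocytes. Without IL1A+TNF retina 9 Serpina3f was at 5.76, and without retina 4 Gm12185 was at 4.78. The largest fall among the same genes was Glb1l3, from 8.9 to 20.3 CPM (median 14.7) to 0.592 to 5.61 CPM (median 1.49) (log2 fold change −3.14 ± 0.43 (SE), FDR = 5.2e-08), followed by Gm16055, at −2.49, and Siglech.

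The difference between treatments was not shown to depend on sex. The interaction of sex with treatment was called in 0 of 19548 genes (0.0%) by limma. At an unadjusted p under 0.05 it had 1418, and edgeR's quasi-likelihood test gave 0 called and 1149 at that level. Taken as separate contrasts of a joint fit, females gave 5369 and males 4090 called genes. Of the 2676 called in both, 2675 had the same direction.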

How the data were processed

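RNA-seq of whole mouse retinas was analysed from the deposited counts of read pairs per gene. The authors aligned reads to mm10 with STAR 2.7.9a and counted them with featureCounts of Subread 2.0.1, and the deposited counts are whole numbers for 37315 genes, not normalized. The annotation release is not given in the sources used here, and symbols and positions came from GENCODE M21 on GRCm38. Treatment, sex and mouse were taken from the labels.

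Genes were kept by filterByExpr (minimum count 10, minimum total 15, proportion 0.7), which left 19548. All 58 WT batch 1 day 2 retinas (35 mice) were fitted with limma 3.58.1 (voom on TMM factors, terms for treatment and sex, mouse as a random block by duplicateCorrelation, correlation 0.0515) in R 4.3.3, and the contrast IL1A+TNF minus TNF was adjusted by Benjamini-Hochberg. Alternatives used edgeR 4.0.16, DESeq2 1.42.0, other normalizations, filters and terms, and each retina left out. The limma contrast was checked on simulated counts, with fewer genes changed than called here and the eyes of a mouse drawn independently. Replicate pairing rests on both eyes of 1 mouse. With treatment and sex means taken out, 23 such pairs correlated at a median of 0.0214 and retinas of different mice at −0.0237. Of the 23 pairs, 9 exceeded 0.1. No retina duplicated another (smallest chi-square per gene 12.8).

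The members, the 42 gene lists (625 distinct genes tested) and the tests were chosen with earlier results of these data known. Genes named are the 10 with the smallest FDR and the 10 largest rises and falls among called genes with a mean of at least 1 CPM, up to 4 called and the first 2 tested members of each list, and genes the study names. Some genes that this rule takes are not reported here. Others are members that make up a count of 5 or fewer in a list and were named after their values were seen. Replicates are separate mice. Depth sets the precision: at 1 CPM the shallowest of the 58 libraries holds 30.0 counts. Counts do not use strand as far as the sources used here say, so overlapping genes may share reads.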

Additional observations from a re-analysis of the deposited data

Results flagged for a closer look

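A retina was marked by Dixon's test on log2 CPM. Its gap to the nearest other retina, divided by the range of its group, then exceeded the critical value. Chance alone marks about 1 in 20 groups, and 45 values were marked in 442 groups of the 221 named genes. Each is given as its CPM. Marked as lowest in IL1A+TNF retina 9 were Serpina3f (0), Ifit2 (23), Gfap (124), Pmaip1 (2.79), Gal (0.808), Nupr1 (16.7) and Edn2 (75.3). IL1A+TNF retina 9 was marked as highest for Tnfaip3 (210.0) and Hmgcs1 (135). Cxcr2 (0), S100a9 (0.127), S100a8 (0.0952), Itgb2 (2.48), Gbp2 (9.87), Gbp3 (8.44), Psmb10 (5.36), Psme2 (18.7), H2-Aa (0.349), C3ar1 (2.06), H2-T23 (6.98), Psmb8 (3.36), Ccr2 (0.0635), F13a1 (0.0635) and Mmp12 (0.19) had their lowest value of the group in TNF retina 6. Marked as highest in TNF retina 6 was Slc46a1 (35.2). IL1A+TNF retina 1 was marked as lowest for H2-Ab1 (13.2) and Pax2 (0.909). Steap4 (115), Nlrp3 (7.39), Bak1 (21.9), Ccr2 (62.4), Mcm3 (12.2), Mcm2 (20.3), Mcm6 (15.9) and Mcm5 (12.8) had their highest value of the group in IL1A+TNF retina 2. Marked as lowest in IL1A+TNF retina 2 were Scgn (23.9) and Vegfa (74.3). TNF retina 4 was marked as highest for Egr2 (2.62). Thrb (110.0) had its lowest value of the group in TNF retina 5. Marked as highest in TNF retina 5 was Mip (113). TNF retina 1 was marked as lowest for Glul (1130.0). Pax2 (1.58) had its highest value of the group in TNF retina 7. Marked as highest in IL1A+TNF retina 3 was Ocln (7.9). IL1A+TNF retina 6 was marked as lowest for Cd4 (0.29). Slc17a7 (1360.0) had its lowest value of the group in TNF retina 8. The value of TNF retina 6 was the lowest in 15 of the marked TNF groups, and its part in the difference between treatments is given by the counts without it.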

How the results depend on the processing

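Leaving out each retina in turn gave 6552 (without TNF retina 6) to 7955 (without IL1A+TNF retina 9) called genes, 3611 to 4313 higher and 2805 to 3872 lower. The replicate block, with mouse as a fixed factor and thus a paired reading against the PBS eyes, gave 2753 (1417 higher, 1336 lower). Of the 191 named called genes 58 lost their call. The fit uses 16 of the 18 mice, and the spread of the PBS eyes enters each difference, while the correlation within mice was 0.0515. What part either has in the drop was not tested. Library totals in place of TMM factors gave 5907 higher and 2342 lower, and moved the median log2 fold change of all genes from −0.01 to 0.07. Ccr2 was reversed in the replicate block, at −0.10. Other tools, filters, terms and weights kept the count of called genes within 1.5 times, from 7354 (only the 18 retinas) to 8249 (library totals), edgeR giving 7693 and DESeq2 7805, and an FDR under 0.01 gave 5447. Without both TNF retinas 6 and 3, chosen after the data were seen, 5837 were called. The sex interaction stayed at 0 with edgeR and without the mouse block.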

Other observations

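Other genes that the study's text names moved little. Slc46a1, the proton-coupled folate transporter, fell by 0.33 on the log2 scale (FDR = 1.06e-05) and was lower in every IL1A+TNF than in every TNF retina, and Vps53 fell by 0.12 (FDR = 0.0091). Six3, a homeobox gene of the retina, was at 0.02 (FDR = 0.86), Dynlt1b at 0.12 (FDR = 0.338), Fam57a at 0.00 (FDR = 0.982) and Tlcd2 at 0.14 (FDR = 0.62).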
